A study of Danio rerio with 16 samples.

Results

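The circadian clock genes of the zebrafish were examined in RNA-seq profiles of whole larvae. The list holds 39 genes of the 22994 in the table and was set by gene symbol: the period and cryptochrome genes, the clock and bmal genes of the positive arm, the rev-erb and ror nuclear receptors, the PAR bZIP factors with the nfil3 repressors, bhlhe40 and bhlhe41, the casein kinase 1 genes, ciarta and timeless. All 39 were found and all 39 were tested, and 34 of them reached the mean of 75 normalized counts that a call required. The other 5, which could not be called, were one CLOCK copy (ENSDARG00000011703), arntl2, nr1d4a, nr1d4b and rorb. The copies of cry1, clock and bmal1 share a symbol in the table of gene names and are therefore given by gene ID, without a copy letter. Of the others, per1a and per1b were set by gene ID, and arntl2 was matched by an alias. The genes called nr1d2b (ENSDARG00000009594), roraa (ENSDARG00000031768) and csnk1db (ENSDARG00000006125) were assigned by elimination, so their copy letters are inferred. Reads that near-identical copies share could be split between them in the authors' estimates, so the values of copies are uncertain in that respect.

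Libraries were made from 16 pools of 8 larvae at 5 days post fertilization (dpf). All larvae came from crosses of fish with GR369-, a single frameshift allele of the glucocorticoid receptor (GR) gene nr3c1. VBA- larvae lacked the visual background adaptation, a camouflage response of pigment cells that depends on the GR, and are homozygous mutants, whereas wild-type and heterozygous siblings are mixed in the VBA+ pools. Each genotype class developed in 1 uM cortisol or in vehicle (DMSO), on a cycle of 14 h light and 10 h dark, which gave the groups VBA+ vehicle, VBA+ cortisol, VBA- vehicle and VBA- cortisol with 4 pools each. All pools were collected around Zeitgeber time 3, 3 h after lights on. A single time of day gives a level and no phase, so a change in the height of a rhythm and a shift of its timing cannot be told apart. Each condition had 1 dish for all of its pools, and the dishes were collected one after another, so dish and order of collection cannot be told apart from condition, and the p-values measure the spread between pools of one dish. Values are log2(normalized count + 0.1), as deposited, and they are not corrected for gene length, so levels of different genes are not compared. In whole larvae, fewer cells of a type and less RNA per cell cannot be told apart.

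The vertebrate clock is a transcriptional feedback loop. CLOCK (or its relative NPAS2) pairs with BMAL to activate the period and cryptochrome genes, whose products return to repress the pair, and a second loop of rev-erb repressors and ror activators acts on bmal. The output of the loop passes through factors such as the PAR bZIP proteins (tef, dbp, hlf) and their antagonist nfil3. In zebrafish the tissues carry clocks that respond directly to light, and glucocorticoids are known in vertebrates as a signal that sets peripheral clocks.

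The genotype labels were examined on fkbp5, a chaperone gene activated by the GR, since the frameshift need not remove the nr3c1 transcript. Its 4 VBA+ vehicle libraries had log2 levels of 8.99, 8.42, 8.72 and 8.94, and the VBA- vehicle libraries had 8.72, 6.002, 5.98 and 5.25. In cortisol the VBA+ levels were 8.61, 9.47, 9.25 and 9.39 and the VBA- levels were 8.95, 6.94, 6.66 and 3.34. The libraries labelled VBA- replicate 1, in vehicle and in cortisol, thus had fkbp5 levels inside those spanned by VBA+ libraries of the same treatment. The nr3c1 levels of these libraries, 8.997 in vehicle and 9.21 in cortisol, were below all VBA+ libraries of the same treatment (lowest 9.18 and 9.39). VBA- vehicle replicate 3, at 9.33 for nr3c1, lay inside the VBA+ vehicle levels. Because of the fkbp5 levels, the main clock gene results that involve VBA- larvae are also given without the libraries numbered 1. That choice was made after seeing the data. Of 6 glucocorticoid target genes taken as a companion list (nr3c1 itself included), 4 rose with cortisol in VBA+ larvae: dusp1, klf9, sgk1 and tsc22d3, with log2 fold changes of 1.03, 1.14, 0.96 and 0.51.

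The first comparison asked what chronic cortisol did to the clock genes in larvae with a GR. In VBA+ larvae 2 of the 39 clock genes rose with cortisol, nr1d2a and nfil3-6, and 0 fell. That is 5.13% of the list, and of the 21686 genes tested 8.22% were called in this comparison, 3.6% as higher. Calls required an adjusted p (limma) of 0.05 or less, a log2 fold change of 0.5 or more in size with a standard error (SE) below 1, and the mean of 75 normalized counts. Without the limit on fold change, 9 of the 39 (23.1%) had an adjusted p of at most 0.05, beside 15.1% of all genes tested, and all 9 were higher in cortisol. These 9 were per1a, a CLOCK copy, nr1d1, nr1d2a, tefb, dbpb, hlfa, nfil3-6 and csnk1db, with log2 fold changes between 0.25 and 0.74. At an unadjusted p under 0.05 there were 15 higher clock genes (38.5%, against 16.6% of all genes) and 1 lower, cry5. The log2 fold change was above 0 for 28 of 39 clock genes (71.8%, against 48.8% of all genes). The median log2 fold change was 0.15 over the list and -0.01 over all genes tested.

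The count of 9 changed when single libraries were left out, and so did the number of calls over the whole table. It was 3 without VBA+ vehicle replicate 1, 5 without VBA+ vehicle replicate 2, 2 without VBA+ cortisol replicate 1 and 1 without VBA+ cortisol replicate 2, and between 6 and 12 without any other VBA+ library. Of all genes tested, 1783 were called in the main fit, against 440 and 690 without VBA+ vehicle replicate 1 and 2. Without VBA+ cortisol replicate 1, 2 and 4 the whole-table count was 454, 414 and 2925. These whole-table counts are of calls, which also need the limits on fold change, SE and mean. They are no background for the clock gene counts at an adjusted p alone. The 2 calls became 1 without VBA+ vehicle replicate 1 or 3 or VBA+ cortisol replicate 1 or 2, and 4 without VBA+ cortisol replicate 3, and with all 16 libraries in 1 fit 0 clock genes were called.

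**Figure D1:**
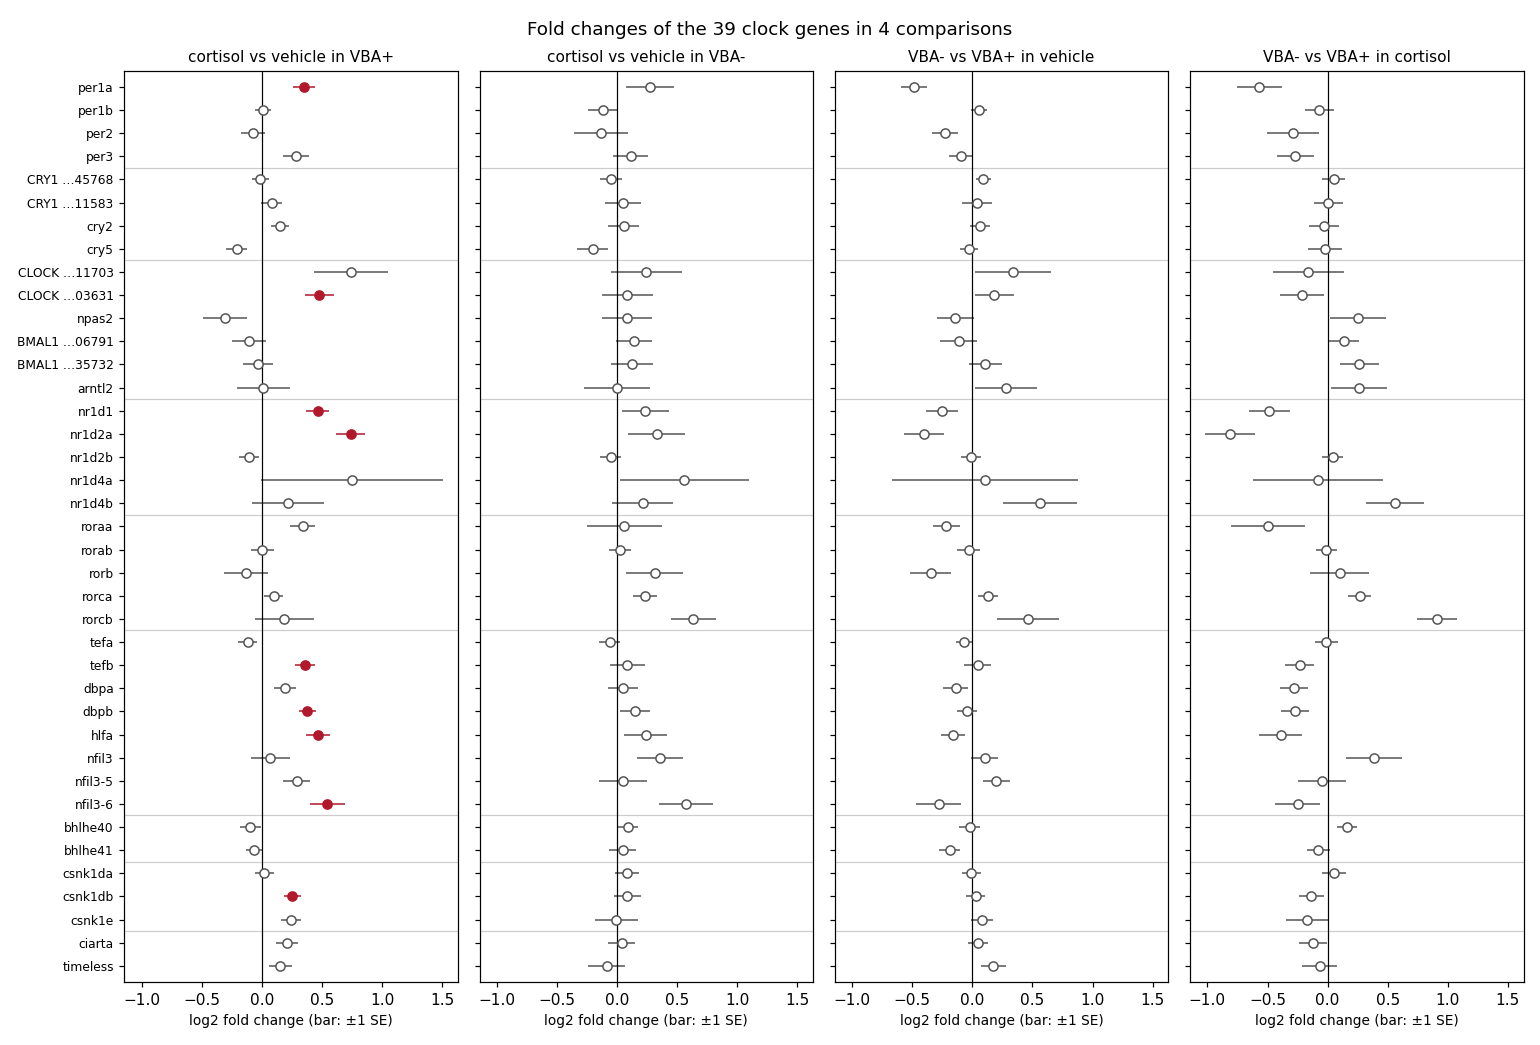
Log2 fold change of each of the 39 clock genes (rows, in blocks by role) in 4 comparisons (panels), with bars of 1 SE on either side. Filled red points had an adjusted p of at most 0.05 in limma. All 9 of them are in the panel of cortisol in VBA+ larvae and lie right of 0.

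The period genes encode the repressors that close the core loop. The log2 levels of per1a (ENSDARG00000056885) were 8.59, 8.61, 8.52 and 8.38 in VBA+ vehicle and 8.75, 8.95, 8.96 and 8.85 in VBA+ cortisol. They were 7.93, 7.93, 8.28 and 8.01 in VBA- vehicle and 8.58, 7.73, 8.50 and 8.43 in VBA- cortisol. All VBA+ cortisol pools were above all VBA+ vehicle pools, which in turn were above all VBA- vehicle pools, and the VBA- cortisol pools overlapped both vehicle groups. The log2 fold change with cortisol was 0.35 ± 0.09 (SE) in VBA+ larvae (adjusted p 0.0328 in limma), under the limit of 0.5 for a call. In VBA- larvae it was 0.27 ± 0.20 (SE), and the adjusted p was 1 in limma. Without the VBA- libraries numbered 1 it was 0.15 there. The study, which tested counts with DESeq2, reported per1a as raised by cortisol in VBA+ larvae and as underexpressed in VBA- larvae. The calls here come from another test, so the lack of a call for per1a does not speak against that report.

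No other period gene had an adjusted p of at most 0.05 with cortisol. The log2 level of per1b (ENSDARG00000012499), the second copy of per1, was 10.62, 10.75, 10.62 and 10.59 in VBA+ vehicle and 10.66, 10.70, 10.62 and 10.64 in VBA+ cortisol. It was 10.70, 10.64, 10.73 and 10.75 in VBA- vehicle and 10.44, 10.37, 10.67 and 10.86 in VBA- cortisol. The groups overlapped in every comparison, and the log2 fold change with cortisol in VBA+ larvae was 0.01 ± 0.07 (SE), with an adjusted p of 0.949 in limma. In the same comparison per3 had 0.28 ± 0.11 (SE) and per2, a period gene induced by light, had -0.07 ± 0.10 (SE), with adjusted p of 0.0919 and 0.616 in limma. None of the 4 cryptochrome genes, which encode the partners of PER in repression, had an adjusted p of at most 0.05, and their log2 fold changes in VBA+ larvae ran from -0.21 for cry5 to 0.15 for cry2. Zebrafish cry5 encodes a (6-4) photolyase, a DNA repair enzyme, and is grouped here with the cryptochromes by its symbol.

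**Figure D2:**
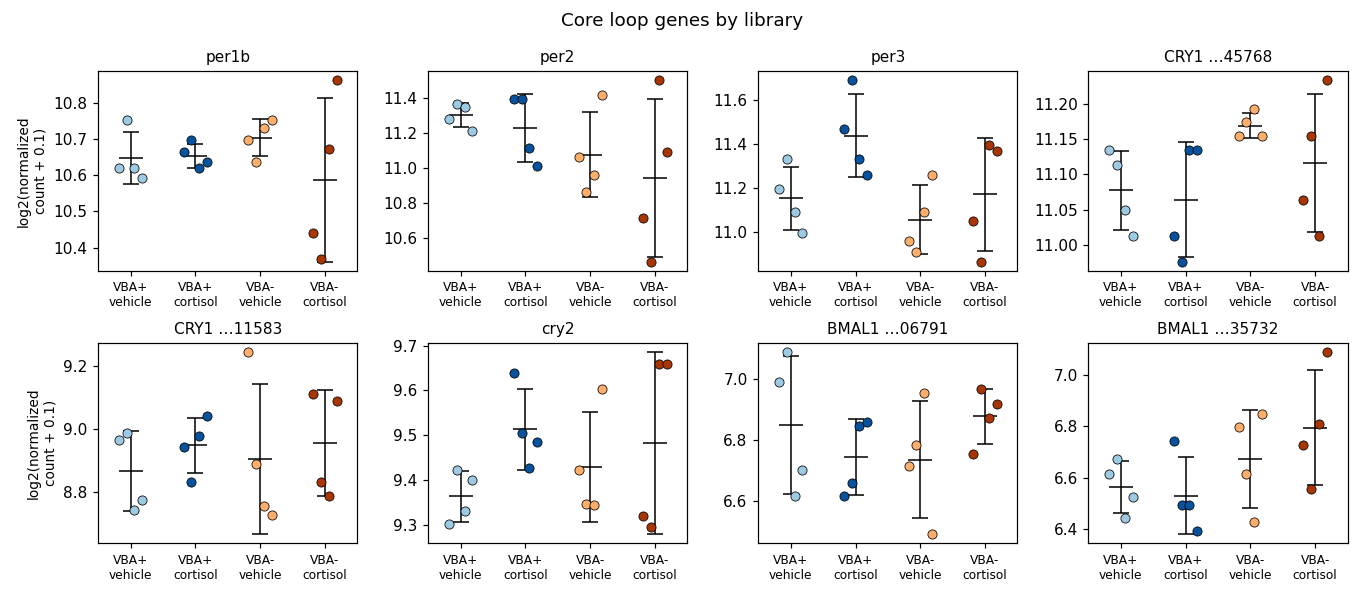
Log2(normalized count + 0.1) of 8 core loop genes in each of the 16 pools, by group, with the group mean and a bar of 1 SD on either side (n = 4). Each panel has its own vertical scale, which does not start at 0. The VBA+ vehicle and VBA+ cortisol pools overlap in every panel but that of cry2, where the cortisol pools are all higher.

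In the positive arm, 1 of 6 genes had an adjusted p of at most 0.05 with cortisol in VBA+ larvae. That is near the 15.1% of all genes tested, so the count is no result about this arm. The CLOCK copy ENSDARG00000003631, singled out after its values were seen, had log2 levels of 8.13, 7.84, 8.12 and 8.16 in VBA+ vehicle and 8.67, 8.75, 8.37 and 8.38 in VBA+ cortisol. The groups did not overlap, and cortisol pools were higher by 0.48 ± 0.12 (SE) on the log2 scale (limma, adjusted p 0.03). In VBA- larvae its levels were 7.96, 7.97, 8.48 and 8.57 in vehicle and 8.23, 7.94, 8.74 and 8.42 in cortisol, which overlapped, with pools 3 and 4 above pools 1 and 2 in both groups. The other CLOCK copy (ENSDARG00000011703), with a mean of only 55.9 normalized counts, had levels of 4.47, 6.05, 5.33 and 5.40 in VBA+ vehicle and 6.36, 6.29, 5.91 and 5.65 in VBA+ cortisol. In VBA- larvae it had 5.33, 5.53, 5.65 and 6.09 in vehicle and 5.56, 5.29, 6.39 and 6.32 in cortisol. Its groups overlapped in every comparison, and its log2 fold change of 0.74 ± 0.31 (SE) in VBA+ larvae had an adjusted p of 0.117 in limma. The bmal genes, whose products pair with CLOCK, had log2 fold changes in VBA+ larvae of -0.10 and -0.03 for the BMAL1 copies and 0.01 for arntl2, and npas2 had -0.31 ± 0.19 (SE, adjusted p 0.263 in limma).

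Rev-erb proteins are heme-binding nuclear receptors that repress bmal genes. The log2 levels of nr1d2a were 10.02, 10.04, 9.49 and 9.71 in VBA+ vehicle and 10.45, 10.49, 10.57 and 10.70 in VBA+ cortisol. They were 9.70, 9.64, 9.18 and 9.12 in VBA- vehicle and 10.29, 9.68, 9.80 and 9.19 in VBA- cortisol. All VBA+ cortisol pools were above every other pool, while the VBA- pools of the 2 treatments overlapped. With cortisol nr1d2a rose by 0.74 ± 0.12 (SE) on the log2 scale in VBA+ larvae (adjusted p 0.0115 in limma), which was the smallest adjusted p of the list, and it was called with any VBA+ library left out. In VBA- larvae the log2 fold change was 0.33 ± 0.24 (SE), with an adjusted p of 1 in limma, and 0.24 without the libraries numbered 1.

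A second rev-erb gene, nr1d1, singled out after its values were seen, had log2 levels of 10.66, 10.77, 10.33 and 10.49 in VBA+ vehicle and 11.05, 11.05, 11.03 and 10.99 in VBA+ cortisol. In VBA- larvae it had 10.67, 10.23, 10.14 and 10.20 in vehicle and 10.99, 10.38, 10.66 and 10.14 in cortisol. The VBA+ cortisol pools lay close together and above all VBA+ vehicle pools, by 0.47 ± 0.10 (SE) on the log2 scale with an adjusted p of 0.0181 in limma, and the VBA- groups overlapped. The remaining rev-erb genes were nr1d2b, at -0.11 ± 0.08 (SE, adjusted p 0.396 in limma), and the copies nr1d4a and nr1d4b, which had low counts. The log2 levels of nr1d4a, with a mean of 7.94 normalized counts, were 3.02, 3.597, 0.14 and 2.83 in VBA+ vehicle and 3.02, 3.597, 3.92 and 2.04 in VBA+ cortisol. In VBA- larvae it had 2.61, 2.04, 2.04 and 3.34 in vehicle and 2.04, 3.02, 3.597 and 3.597 in cortisol. Its log2 fold change of 0.75 ± 0.76 (SE) in VBA+ larvae rested on the low VBA+ vehicle replicate 3, without which it was -0.01.

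**Figure D3:**
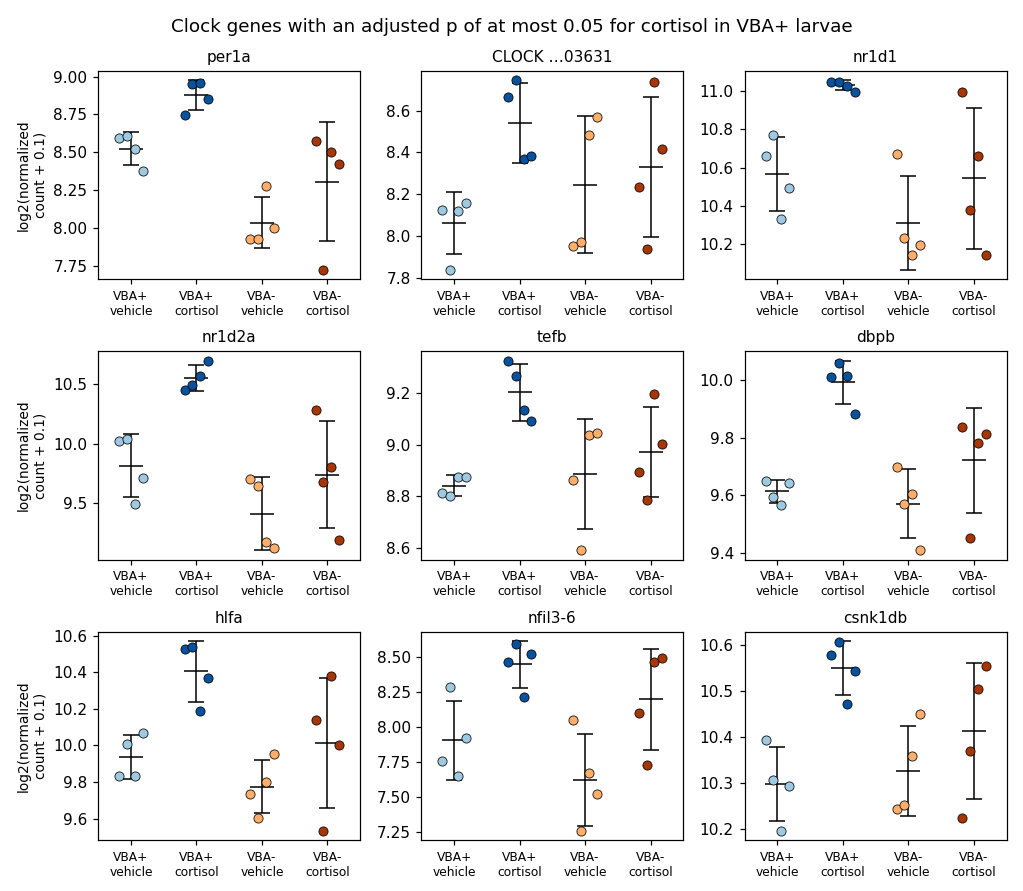
Log2(normalized count + 0.1) in each of the 16 pools for the 9 clock genes with an adjusted p of at most 0.05 for cortisol in VBA+ larvae, with the group mean and a bar of 1 SD on either side (n = 4). Each panel has its own vertical scale, which does not start at 0. The VBA+ cortisol pools are above all VBA+ vehicle pools in every panel but that of nfil3-6, and the 2 VBA- groups overlap in all panels.

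The ror genes encode activators that compete with rev-erb proteins, and none of the 5 had an adjusted p of at most 0.05 in VBA+ larvae. Their log2 fold changes ran from -0.13 for rorb to 0.34 for roraa (adjusted p 0.0584 in limma for roraa).

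The PAR bZIP factors carry the rhythm to output genes such as those of detoxification. Of 8 genes in this class with the nfil3 repressors, 4 had an adjusted p of at most 0.05 with cortisol in VBA+ larvae (against 15.1% of all genes tested). The log2 level of hlfa was 9.83, 10.01, 9.83 and 10.07 in VBA+ vehicle and 10.53, 10.54, 10.19 and 10.37 in VBA+ cortisol, without overlap (0.47 ± 0.10, SE, adjusted p 0.0195 in limma). For dbpb it was 9.65, 9.59, 9.57 and 9.64 in VBA+ vehicle and 10.01, 10.06, 10.01 and 9.88 in VBA+ cortisol, again without overlap (0.38 ± 0.07, SE, adjusted p 0.0145 in limma). For tefb it was 8.81, 8.80, 8.88 and 8.88 in VBA+ vehicle and 9.32, 9.26, 9.13 and 9.09 in VBA+ cortisol, also without overlap (0.36 ± 0.08, SE, adjusted p 0.0238 in limma). These 3 were singled out after their values were seen. The copies tefa and dbpa, at -0.12 ± 0.08 (SE) and 0.19 ± 0.10 (SE), did not pass (adjusted p 0.322 and 0.177 in limma).

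The nfil3 genes encode repressors that bind the same sites as the PAR bZIP factors. The log2 levels of nfil3-6 were 7.76, 8.29, 7.64 and 7.92 in VBA+ vehicle and 8.46, 8.59, 8.21 and 8.52 in VBA+ cortisol. In VBA- larvae they were 8.04, 7.26, 7.67 and 7.52 in vehicle and 8.10, 7.73, 8.46 and 8.49 in cortisol. The groups overlapped in both genotypes, in VBA+ larvae by the single vehicle replicate 2 and in VBA- larvae by vehicle replicate 1. With cortisol nfil3-6 rose by 0.54 ± 0.15 (SE) on the log2 scale in VBA+ larvae (adjusted p 0.0365 in limma), a call that was lost without VBA+ vehicle replicate 1, 3 or 4 or VBA+ cortisol replicate 1 or 2, with adjusted p from 0.0633 to 0.107 in limma. In VBA- larvae the value was 0.57 ± 0.22 (SE), with an unadjusted p of 0.029 and an adjusted p of 1 in limma, and 0.75 without the libraries numbered 1 (unadjusted p 0.0198 in limma). The related nfil3 and nfil3-5 had 0.07 ± 0.17 (SE) and 0.29 ± 0.11 (SE) in VBA+ larvae and did not pass (adjusted p 0.785 and 0.0953 in limma).

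Among the regulators of the loop, casein kinase 1 phosphorylates PER proteins and marks them for degradation. The log2 level of csnk1db, singled out after its values were seen, was 10.40, 10.31, 10.20 and 10.30 in VBA+ vehicle and 10.58, 10.61, 10.47 and 10.54 in VBA+ cortisol, without overlap (0.25 ± 0.07, SE, adjusted p 0.0425 in limma). Its paralogs had 0.02 ± 0.08 (SE, csnk1da) and 0.24 ± 0.08 (SE, csnk1e), with adjusted p of 0.879 and 0.0709 in limma. The repressors bhlhe40 and bhlhe41, which compete with CLOCK and BMAL for E-boxes, had -0.10 and -0.07, ciarta 0.21 and timeless 0.15, and none of the 4 had an adjusted p of at most 0.05.

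The groups of pools did not overlap for 11 clock genes in this comparison (28.2%, against 20.2% of all genes tested), 10 of them higher in cortisol (against 8.44% of all genes) and 1, bhlhe41, lower. Of 24 further regulators of the clock taken as a companion list, 19 were matched and 1 was called. Of all genes tested 8.22% were called, 3.6% as higher, so this count is not read as a result about the list. The median log2 fold change was 0.008 over the matched regulators and -0.012 over all genes tested. The called gene was fbxl3a, an F-box gene whose mammalian relative targets cryptochromes for degradation. It rose by 0.54 ± 0.15 (SE) on the log2 scale (adjusted p 0.0425 in limma). Among 6 matched light-induced genes 0 were called in any of the 5 comparisons, and among 3 matched melatonin and pineal genes 0 were called.

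Markers of neurons and liver held calls in the same comparison. Among the matched photoreceptor, muscle, gut, pineal and blood markers 0 were called. Of 5 listed neuron markers 3 were matched, and elavl3 and elavl4 rose by 0.60 and 0.71 on the log2 scale with cortisol in VBA+ larvae. The log2 of the summed level of all 3 matched neuron markers was 12.14 to 12.44 in VBA+ vehicle and 12.32 to 13.16 in VBA+ cortisol. Of 4 liver markers 2 were called, tfa and fgb, which rose by 1.00 and 0.72. The log2 fold changes of all 4 ran from -0.09 to 1.00, with a median of 0.395, so the list did not move as a whole. The log2 of the summed level of all 4 was 15.08 to 15.33 in VBA+ vehicle and 15.33 to 15.50 in VBA+ cortisol. The part of these tissues in the clock gene values was not tested.

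In larvae labelled VBA-, the same treatment gave 0 calls among the clock genes and 0 among all genes tested (0%). At an unadjusted p under 0.05 there were 3 clock genes, all higher in cortisol (7.69%, against 1.79% of all genes in either direction and 0.987% higher): rorca, rorcb and nfil3-6. Without the libraries numbered 1 there were 2, rorcb and nfil3-6, against 1.85% of all genes. The log2 levels of rorcb were 6.88, 7.13, 6.56 and 6.93 in VBA- vehicle and 7.61, 7.19, 7.39 and 7.85 in VBA- cortisol. In VBA+ larvae they were 6.39, 7.001, 6.62 and 5.65 in vehicle and 6.72, 6.67, 6.49 and 6.52 in cortisol. The VBA- cortisol pools were above all other pools, whereas the VBA+ groups overlapped. The log2 fold change of rorcb with cortisol was 0.63 ± 0.19 (SE) in VBA- larvae (adjusted p 1 in limma, and 0.60 without the libraries numbered 1) and 0.19 ± 0.25 (SE) in VBA+ larvae (adjusted p 0.611 in limma). Its paralog rorca, singled out after its values were seen, had levels of 8.35, 8.43, 8.38 and 8.38 in VBA- vehicle and 8.59, 8.65, 8.61 and 8.62 in VBA- cortisol, without overlap, a difference of 0.23 ± 0.10 (SE) on the log2 scale with an adjusted p of 1 in limma, and 0.23 without the libraries numbered 1 (unadjusted p 0.129 in limma). Pools did not overlap for 3 clock genes in VBA- larvae (7.69%, against 1.52% of all genes), rorca, rorcb and bhlhe40, all higher in cortisol (against 0.682% of all genes). The log2 fold change was above 0 for 30 of 39 clock genes (76.9%, against 47.4% of all genes). The median log2 fold change was 0.08 over the list and -0.01 over all genes.

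Whether cortisol acted differently in the genotypes was tested directly as an interaction. None of the 39 clock genes was called (0 of 39, against 1 of 21686 genes, 0.00461%), and 0 had an unadjusted p under 0.05, against 5.25% of all genes. The 3 largest differences in size, VBA- minus VBA+, were -0.50 ± 0.45 (SE) for the CLOCK copy ENSDARG00000011703 and 0.45 ± 0.33 (SE) and 0.45 ± 0.30 (SE) for rorcb and rorb. The log2 levels of rorb were 6.29, 6.17, 6.09 and 6.09 in VBA+ vehicle and 6.29, 5.78, 6.36 and 5.68 in VBA+ cortisol. They were 6.17, 5.91, 5.59 and 5.59 in VBA- vehicle and 6.43, 5.76, 6.46 and 5.86 in VBA- cortisol, and the cortisol pools of both genotypes split into a higher pair (1 and 3) and a lower pair (2 and 4). For per1a the difference was -0.08 ± 0.22 (SE), for nr1d2a -0.41 ± 0.28 (SE) and for nfil3-6 0.03 ± 0.28 (SE), with adjusted p of 0.909, 0.726 and 0.976 in limma. The changes of nr1d2a and nfil3-6 in VBA+ larvae were therefore not shown to differ from those in VBA- larvae. Without the VBA- libraries numbered 1 the difference was -0.21 for per1a, 0.20 for nfil3-6, -0.49 for the CLOCK copy, 0.42 for rorcb and 0.46 for rorb, and again no clock gene had an unadjusted p under 0.05, against 4.59% of all genes. For nr1d2a it was then -0.49 (unadjusted p 0.0683, adjusted p 0.888 in limma), and it was -0.59 with only the VBA- cortisol replicate 1 left out (unadjusted p 0.0315, adjusted p 0.952 in limma). With only the VBA- vehicle replicate 1 left out it was smaller, at -0.31 (unadjusted p 0.3, adjusted p 0.706 in limma).

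Loss of the GR was examined next in vehicle. No clock gene was called between VBA- and VBA+ vehicle larvae (0 of 39, against 0.235% of all genes tested), and 2 had an unadjusted p under 0.05, per1a and nr1d2a, both lower in VBA- larvae (5.13%, against 14% of all genes in either direction and 6.54% lower). Without VBA- vehicle replicate 1 there were 6 (against 16.1% of all genes in either direction and 8.01% lower): per1a, nr1d1, bhlhe41, nr1d2a, rorb and nfil3-6, all lower in VBA- larvae. The 3 largest changes in size were those of nr1d4b, per1a and rorcb. The log2 fold change of per1a, whose 4 VBA- pools were all below the 4 VBA+ pools, was -0.49 ± 0.11 (SE, adjusted p 0.116 in limma), and -0.45 without VBA- vehicle replicate 1. For nr1d2a it was -0.40 ± 0.17 (SE, adjusted p 0.329 in limma) with overlapping groups, and -0.50 without VBA- vehicle replicate 1. The same-numbered pools of this comparison varied together, with correlations of 0.212 to 0.309 over genes with a mean of at least 75. Over all tested genes the correlations were 0.092 to 0.122. The pools came from different dishes, and the labels do not pair them. Pairs by number are therefore not part of the design, and nr1d2a was lower in the VBA- pool in 4 of 4 of them. For nr1d2a, limma with a replicate block on these numbers gave p 0.00124 before adjustment and 0.0685 after it. For per1a the same fit gave 0.00216 and 0.0871. The block assumes a pairing that the labels do not give, so no conclusion is drawn from these values. The other period genes had 0.06 ± 0.07 (SE, per1b), -0.23 ± 0.11 (SE, per2) and -0.10 ± 0.10 (SE, per3). For rorcb the value was 0.46 ± 0.26 (SE, adjusted p 0.458 in limma). Pools did not overlap for 3 clock genes (7.69%, against 7.67% of all genes): per1a, lower in VBA-, and rorca and the CRY1 copy ENSDARG00000045768, both higher in VBA-. The median log2 fold change was -0.01 over the list and -0.02 over all genes.

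The low-abundance rev-erb copy nr1d4b, with a mean of 28.1 normalized counts, had the largest fold change of the list in vehicle. Its log2 levels were 4.71, 4.18, 3.82 and 4.76 in VBA+ vehicle and 4.47, 5.53, 4.81 and 4.91 in VBA- vehicle. In cortisol they were 4.01, 4.86, 4.81 and 4.65 in VBA+ and 5.17, 5.09, 5.05 and 5.25 in VBA- pools. The vehicle groups overlapped and the cortisol groups did not. The log2 fold change, VBA- over VBA+, was 0.56 ± 0.31 (SE) in vehicle and 0.56 ± 0.24 (SE) in cortisol, with adjusted p of 0.444 and 0.591 in limma. Without the VBA- replicate 1 of the treatment it was 0.72 in vehicle and 0.55 in cortisol.

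In cortisol the genotypes were compared again, and 0 clock genes and 0 of all genes tested (0%) were called between VBA- and VBA+ larvae. At an unadjusted p under 0.05 there were 8 clock genes (20.5%, against 7.84% of all genes), 3 higher and 5 lower in VBA- larvae (against 4.78% and 3.07% of all genes). Without VBA- cortisol replicate 1 there were 7, 2 higher and 5 lower, against 5.51% of all genes. Pools did not overlap for 8 as well (20.5%, against 4.17% of all genes). In VBA- larvae per1a, nr1d2a, dbpa and dbpb were lower without overlap (4 genes, against 1.76% of all genes), and nr1d4b, rorca, rorcb and bhlhe40 were higher without overlap (4 genes, against 2.41% of all genes). This comparison shares the VBA+ cortisol pools with that of cortisol in VBA+ larvae and the VBA- cortisol pools with that in VBA- larvae, so the values are not independent of those above. The 3 largest log2 fold changes in size were 0.91 ± 0.17 (SE) for rorcb, -0.81 ± 0.20 (SE) for nr1d2a and -0.57 ± 0.19 (SE) for per1a, with adjusted p of 0.421, 0.489 and 0.591 in limma. Without VBA- cortisol replicate 1 they were 0.88, -0.996 and -0.66, with adjusted p of 0.412, 0.345 and 0.658 in limma. The median log2 fold change was -0.06 over the list and 0.00 over all genes.

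**Figure D4:**
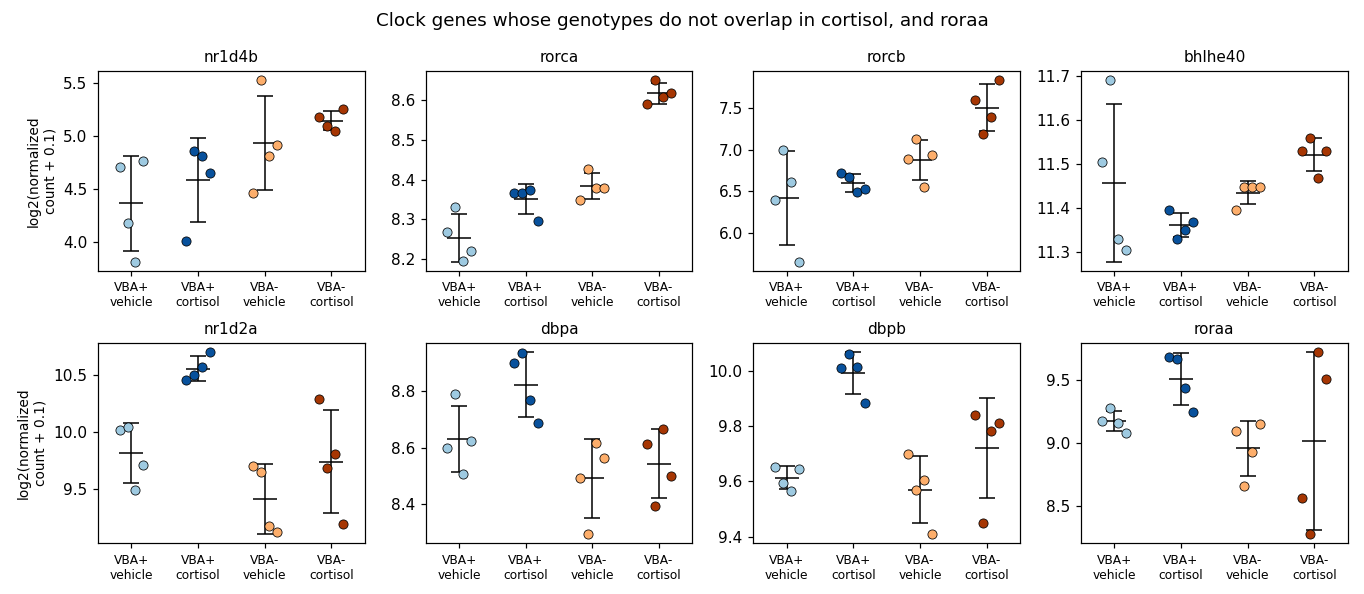
Log2(normalized count + 0.1) in each of the 16 pools for 8 clock genes, by group, with the group mean and a bar of 1 SD on either side (n = 4). Each panel has its own vertical scale, which does not start at 0. In cortisol the VBA- pools are above the VBA+ pools for nr1d4b, rorca, rorcb and bhlhe40 and below them for nr1d2a, dbpa and dbpb, whereas roraa splits the VBA- cortisol pools into a low pair (1 and 2) and a high pair (3 and 4).

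The VBA- cortisol pools differed among themselves in several clock genes. The log2 level of roraa was 8.56, 8.28, 9.72 and 9.51 in these pools, so that pools 3 and 4 were above and pools 1 and 2 below all VBA+ vehicle pools (9.08 to 9.28). The log2 level of per2 was 10.72, 10.46, 11.50 and 11.09, with the same order of pairs. The mean of pools 3 and 4 exceeded that of pools 1 and 2 by 1.20 for roraa, 0.71 for per2, 0.68 for nfil3-5 and 0.61 for csnk1e, and was lower by 0.59 for nfil3 (-0.59) and 0.65 for npas2 (-0.65). These genes were singled out after their values were seen. In these 4 pools pools 3 and 4 were both above pools 1 and 2 for 17 clock genes (43.6%, against 34.3% of all genes) and below them for 5 (12.8%, against 36.8% of all genes). In the other groups the counts above and below were 2 and 21 in VBA+ vehicle (53.8% below, against 20.3% of all genes above and 23% below), 7 and 14 in VBA+ cortisol (against 30% and 26.8%), and 11 and 7 in VBA- vehicle (against 22.8% and 25%). Within pairs, the cortisol change of nr1d2a in VBA+ larvae was 0.44 among pools 1 and 2 and 1.03 among pools 3 and 4. The labels state no batch, and the numbers give no order in time.

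The same pools differed in tissue markers. The log2 of the summed level of the 3 neuron markers was 11.33 and 10.92 in VBA- cortisol pools 1 and 2 and 13.01 and 12.70 in pools 3 and 4, and in the VBA+ cortisol pools it was 13.16, 13.02, 12.72 and 12.32. None of the 3 was at 0 in any library, and their part in the clock gene values was not tested. The comparison of genotypes in cortisol changed sign between the pairs for some of these clock genes. They were picked for their split between the pairs, so the change restates that split and is no separate result. Among pools 1 and 2 the log2 fold change, VBA- over VBA+, was -1.26 for roraa and -0.81 for per2, and among pools 3 and 4 it was 0.27 and 0.23. For rorcb it was 0.70 and 1.11, and for nr1d2a -0.49 and -1.14, in the same order. The cortisol groups did not overlap for either gene, so any split of pools keeps the direction and this is no separate result. With pools 1 and 2 alone, 8 clock genes were called between the genotypes in cortisol and 4 for the interaction. Of all 21686 genes tested, 6435 and 4967 were called in these fits, in each a larger share than of the clock genes. With pools 3 and 4 alone 0 clock genes were called in either, among 63 and 4 genes in all. Each fit held 2 pools of 1 dish per group, on a split chosen after the values were seen. Pools 1 and 2 include the VBA- libraries numbered 1, whose fkbp5 levels lay inside those of VBA+ libraries.

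**Figure D5:**
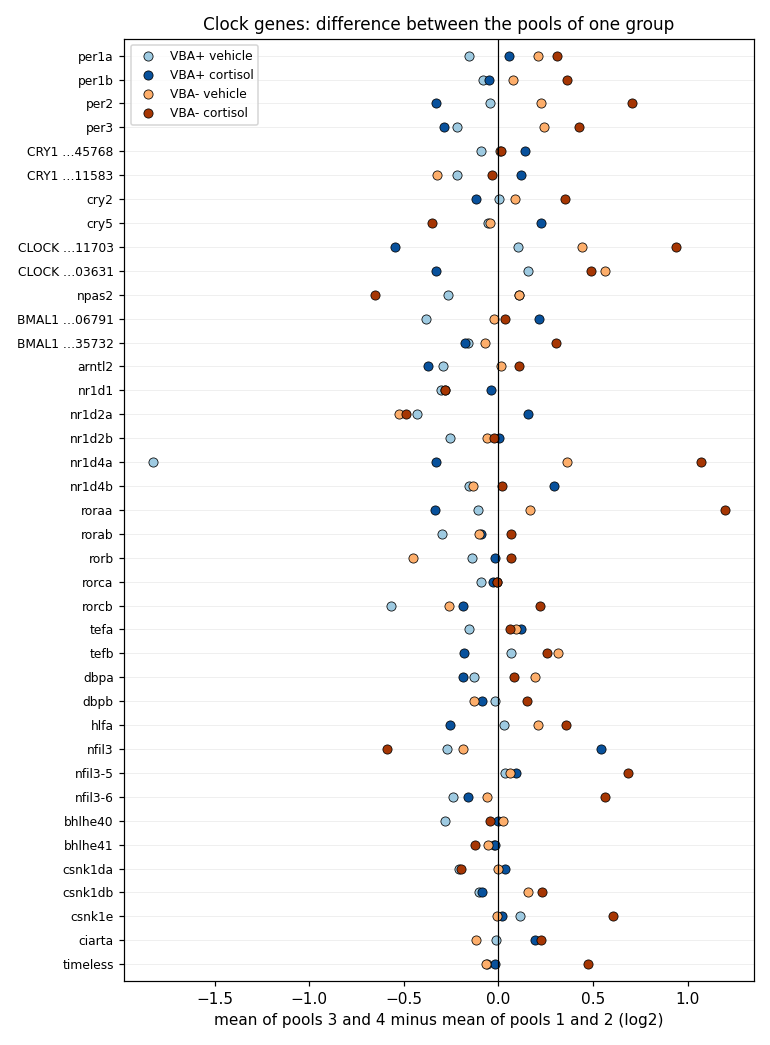
Mean of pools 3 and 4 minus mean of pools 1 and 2, on the log2 scale, for each of the 39 clock genes (rows) in each of the 4 groups (colours). The VBA- cortisol group reaches 1.20 for roraa and 0.71 for per2, where the VBA+ cortisol group lies at -0.33 for both, and the value of -1.82 for nr1d4a in VBA+ vehicle comes from a gene with a mean of 7.94 normalized counts.

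Within the VBA- cortisol group, nr1d2a and nr1d1 had another order. Pool 1 was highest and pool 4 lowest for both, as was so for fkbp5 and for klf9, a GR target gene that encodes a transcriptional regulator, with log2 levels of 9.54, 8.49, 8.16 and 7.44. The level of nr3c1 in these pools was 9.21, 8.69, 8.46 and 7.83. Of the other glucocorticoid targets listed, dusp1 and tsc22d3 also had pool 1 highest and pool 4 lowest. For sgk1 the levels were 9.46, 9.08, 10.24 and 10.61, with pool 4 highest, and per1a was lowest in pool 2. The genes of this paragraph were chosen after their values were seen. These values are a description of 4 libraries, and no relation was tested.

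As a description of which genes varied like per1a, deviations from group means were correlated over the 16 libraries, of which those of a group share a dish. Of 21674 genes compared, those most like per1a were KCNH8 (r = 0.92), rab44 (0.91), RAB36 (0.88), rexo1 (0.88) and il2rga (0.88). They are the highest of a search over many genes and few libraries, so high values arise by selection, and no relation was tested. Among the clock genes the most alike were dbpb (0.68), hlfa (0.61) and per3 (0.56), and the least alike was nfil3 (-0.47).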

How the data were processed

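RNA-seq libraries were prepared from pools of 8 larvae. The authors trimmed reads with Trimmomatic (0.36 in the submitters' processing notes), aligned them with STAR 2.6.1b to the zebrafish genome, estimated expression with RSEM 1.3.0 and normalized it with EDASeq for GC content and by full quantiles. The deposited values are the log2 of the normalized count plus 0.1. Every library holds a sum of 14653434 normalized counts, so the sequencing depth is unknown and no counting error was given. The authors tested counts with DESeq2 1.24.0. A count test could not be run on the deposited log2 values. In its place limma 3.58.1 (lmFit, eBayes with a trend) was used, after it was tested on simulated data. The simulation drew each gene independently, without variation that pools share, so it does not show how limma behaves on these libraries. The fits used the 21686 genes whose normalized counts averaged 5 or more, and p-values were adjusted over these by Benjamini-Hochberg. Fold changes are on the log2(normalized count + 0.1) scale.

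The members, lists and rules were chosen with earlier results of these data known. Values in all libraries are given for called members, per1a, per1b and the 3 members with the largest change in each comparison, and other members shown are named as chosen after their values were seen. Symbols were matched through a table of gene names, and nr1d2b, roraa and csnk1db were assigned by elimination. Same-numbered pools were checked for pairing by the correlation of their deviations from group means. Over the 13772 genes with a mean of at least 75 it was above 0.1 for all 4 pairs of VBA- and VBA+ vehicle pools (0.253, 0.212, 0.309 and 0.235; 0.097, 0.092, 0.104 and 0.122 over all tested genes). In each other comparison at least 1 pair was under that limit. With cortisol in VBA- larvae the 4 pairs had 0.288, 0.657, 0.078 and 0.670. Between genotypes in cortisol they had -0.601, -0.590, -0.449 and -0.625. The labels do not pair pools of different dishes. Figures were drawn with matplotlib.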

Additional observations from a re-analysis of the deposited data

Results flagged for a closer look

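Among 156 sets of 4 pools (39 clock genes in 4 groups), 5 held a pool whose gap to the nearest other pool was above Dixon's critical share of the range of its group, which chance exceeds in about 1 of 20 groups. The log2 level of per1b was highest in VBA+ vehicle replicate 2 (10.752, against 10.620 for the nearest pool). The CLOCK copy ENSDARG00000003631 was lowest in the same library (7.840, against 8.119). For rorca VBA+ cortisol replicate 4 was lowest (8.295, against 8.367), for bhlhe40 VBA- vehicle replicate 1 was lowest (11.396, against 11.448), and for dbpb VBA- cortisol replicate 2 was lowest (9.451, against 9.783). Values of log2 levels come in steps in these libraries, and the gaps of rorca and bhlhe40 are small on the log2 scale.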

How the results depend on the processing

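In 4 of the 5 comparisons the count of called clock genes was 0 under the alternatives fitted on both pairs of replicates, those with 1 pool left out included. With cortisol in VBA+ larvae the main fit called 2 clock genes, among 1783 genes in all. The 2 calls ranged from 1 to 4 with a pool left out (414 to 2925 genes in all). They became 1 without the trend in eBayes (619 genes in all) and 4 with library weights (2770). With a replicate block and with all 16 libraries in the fit they became 0 and 0. The 9 clock genes at an adjusted p of at most 0.05, a count added after seeing the data, became 2, 11, 0 and 0 under these settings and ranged from 1 to 12 with a pool left out. Within replicates 1 and 2 alone, a count added after seeing the data, 8 clock genes were called between genotypes in cortisol and 4 for the interaction. Of the 21686 genes tested, 6435 and 4967 were called there, in each a larger share than of the clock genes. Within replicates 3 and 4 no clock gene was called for either. With cortisol in VBA+ larvae 2 were called within replicates 1 and 2, among 4561 genes in all. These were hlfa and the CLOCK copy ENSDARG00000003631 but not nr1d2a (0.44) or nfil3-6 (0.51). Within replicates 3 and 4 there was 1, nr1d2a, among 37 genes in all. At an adjusted p of at most 0.05 there were 11 and 1 clock genes. The whole-table counts given here are of calls, so they are no background for clock gene counts at an adjusted p alone. Over genes with a mean of at least 75, all 4 same-numbered pairs passed the limit of 0.1 only between VBA- and VBA+ vehicle. There the replicate block changed no call of a clock gene (adjusted p 0.0871 for per1a and 0.0685 for nr1d2a in limma). The labels pair no pools in any comparison. Within replicates 1 and 2 some log2 fold changes lost their direction: -0.020 for per1b in VBA- against VBA+ vehicle larvae, -0.006 for per1b and 0.000 for nr1d4a (0.747 with all pools) with cortisol in VBA+ larvae. Within replicates 3 and 4 the interaction of the CLOCK copy ENSDARG00000011703 was 0.073. With a pool left out, the log2 fold change with cortisol in VBA+ larvae ranged from -0.010 to 0.042 for per1b and from -0.006 to 1.147 for nr1d4a, and the interaction of per1a ranged from -0.171 to 0.112.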
